A study of Mus musculus with 24 samples.

Results

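The comparison is between livers of mice that lacked *E2f7* and *E2f8* (LKO, labelled KO) and livers of their controls (labelled WT) in the first 2 days after an overdose of acetaminophen (APAP). Its members are the 6 libraries of the series taken at 12, 24 and 48 h, 3 LKO and 3 control, of 24 libraries in all. The rule that picks them reads only the genotype and time labels, and each was made from RNA that was pooled from 3 mice, so that 1 library stands for 1 genotype at 1 time point. LKO mice carried floxed alleles of both genes, the R26R mTmG reporter and an Alb-Cre transgene, whose albumin promoter is active in the liver lineage from before birth, and control littermates carried the floxed alleles and the reporter but no Cre. All mice of the 6 pools were 2.5-month-old males of a mixed and mostly FVB background that received 300 mg/kg APAP intraperitoneally after a fast of about 16 h. The reads come from whole liver, in which fewer cells of a type and less RNA per cell cannot be told apart. For reference, the same cohort held 4 control and 4 LKO mice at 0 h, fasted but not dosed and sequenced singly, and 1 pool per genotype at 72 and at 96 h.

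APAP is converted by cytochrome P450 enzymes, mainly in hepatocytes around the central vein, into a reactive quinone imine that glutathione neutralises until it runs out. The metabolite that is left binds proteins of mitochondria, oxidative stress activates the kinase cascade that ends in JNK, and hepatocytes die by necrosis. Surviving hepatocytes and incoming cells switch on immediate-early genes of the AP-1 family, stress cytokines and growth factors, while the genes of the mature hepatocyte fall, and proliferation then replaces what was lost. E2F7 and E2F8 are repressors of the E2F family of transcription factors. In liver they are needed for the failed cell divisions that make hepatocytes polyploid, so that livers without them are rich in diploid hepatocytes.

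Reads on genes ranged from 15742169 to 17629793 in the 6 pools (median 16542765), and 3 counts, taken as the detection floor, equal 0.153 to 0.203 CPM (the count of a gene scaled to library size with TMM factors), a floor that covers counting error only. The control pool at 12 h had 13.6% of its reads on no gene, against 9.36% to 10.95% in the other 5 pools. All 8 hepatocyte markers were detected in every pool, with 79773, 77419.7 and 66075 CPM of *Alb* (albumin) in controls and 39058, 57810.4 and 72009.6 CPM in LKO. *Hba-a1*, *Hba-a2*, *Hbb-bs* and *Hbb-bt* were listed at 0 in all 6 pools, so the share of blood was judged only from *Alas2* and *Klf1*, which did not pass the test. No genotype and time point was sequenced in more than 1 library. The test with the time point as a block therefore asks whether a genotype difference was large against its own variation among the 3 time points, and an exact permutation test that exchanges labels within the 3 time points cannot go below p = 0.25 (2-sided).

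The targeted genes were read first. *E2f8* (chromosome 7, 48866429 to 48881596 of GRCm38, minus strand) had 14.2, 4.19 and 4.91 CPM in the control pools at 12, 24 and 48 h and 47.6, 14.7 and 21.5 CPM in the LKO pools, from 69 to 209 counts in controls and 284 to 791 in LKO. All 3 LKO pools lay above all 3 controls (log2 fold change 1.90, SE 0.25, adjusted p = 0.00202, edgeR's quasi-likelihood test). The deposited count covers the whole gene and is not limited to the deleted exons, so it tells nothing of the deletion, and every direction given here rests on the labelled genotype. *E2f7* (chromosome 10, 110745439 to 110787384, plus strand) had 7 to 23 counts in control pools and 5 to 26 in LKO pools, and no difference was called (log2 fold change −0.37, SE 0.64).

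In the LKO pools more injury-phase genes were called lower than higher relative to controls. Of 12859 genes tested, 193 (1.5%) were called (adjusted p under 0.05, change of 1.5-fold or more), with 171 lower in LKO (1.33% of genes tested) and 22 higher (0.171%). Each of the 171 had a lower level in LKO at 12, 24 and 48 h, and each of the 22 a higher one. In 112 of the 171 all LKO pools lay below all control pools, as in 5.96% of all genes tested, and in 13 of the 22 all lay above, as in 5.58%. A difference of at least 2-fold at each of the 3 time points was found downwards in 123 genes (0.957%), 71 of them called, and upwards in 27 (0.21%), 11 of them called. At an unadjusted p under 0.05 there were 1172 lower and 743 higher genes, and the median fold change over all genes was 0.01 (log2).

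The calls rest on the time block: without it, the change of each gene between 12 and 48 h counts as error, and no gene was called (694 at an unadjusted p under 0.05, smallest adjusted p = 0.857, edgeR). DESeq2, with the block, called 516 genes, which include all 193, with 109 higher and 407 lower, and with no filter beyond 1 count 197 were higher and 577 lower. Leaving out the 24 h pools raised the count to 438, with 89 higher and 349 lower. Without the 12 h pools it was 170, with 44 higher and 126 lower, and without the 48 h pools 148, with 22 higher and 126 lower. The share lower was thus 88.6% of calls here and 74.1% without the 12 h pools, and 60 of the 193 genes (6 of them higher) were called in all 3 of these fits.

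**Figure D1:**
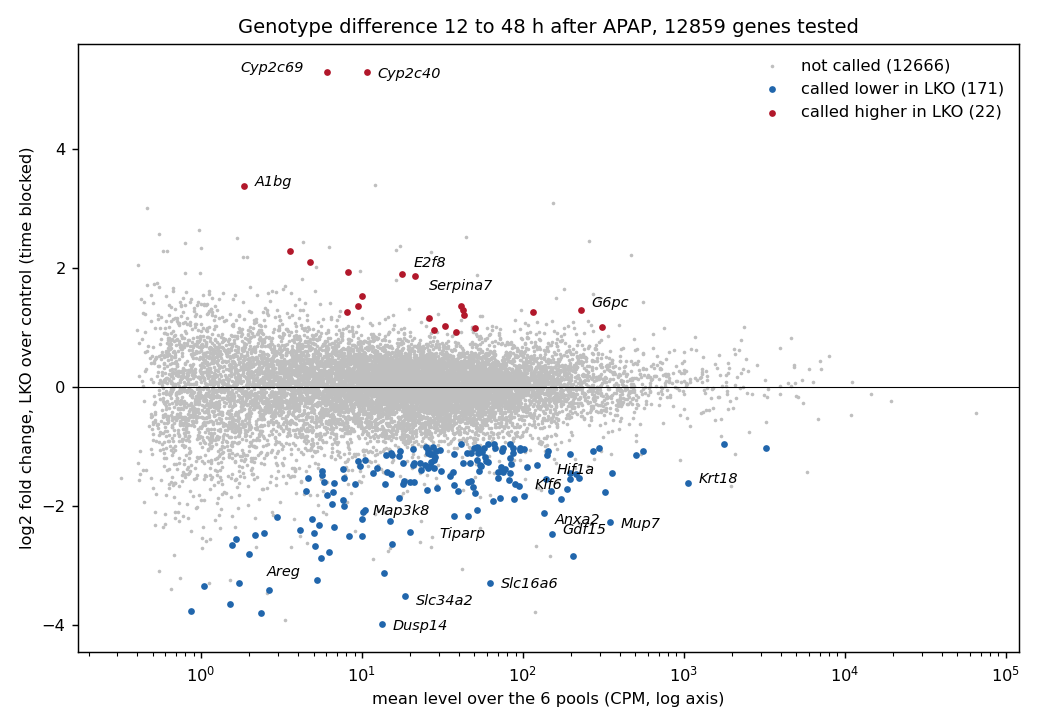
Each of the 12859 genes tested is a point at its mean level over the 6 pools (CPM, log axis) and its fitted log2 fold change of LKO over control at 12 to 48 h. The 171 genes called lower (blue) reach from −0.96 to −4.00, and the 22 called higher (red) from 0.92 to 5.30.

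The decrease with the smallest p was that of *Slc16a6*, a member of the monocarboxylate transporter family (chromosome 11, 109450855 to 109473598, minus strand). *Slc16a6* had 189, 96.6 and 56.7 CPM in the control pools at 12, 24 and 48 h and 15.7, 13.4 and 4.98 CPM in the LKO pools. The LKO pools did not overlap the controls and stood 9.85-fold lower in the fit (log2 fold change −3.30, SE 0.25, adjusted p = 1.1e-05). Next came *Slc34a2*, a sodium-dependent phosphate transporter, with 68.4, 19.4 and 15.1 CPM in controls and 5.48, 2.64 and 0.793 CPM in LKO (log2 fold change −3.52, SE 0.31, adjusted p = 5.83e-05). The LKO pools of that gene again stayed under every control pool. *Gdf15*, a stress cytokine of the TGF-beta superfamily (chromosome 8, 70629393 to 70632456, minus strand), had 528, 137 and 97.1 CPM in controls and 97.1, 33.1 and 12.5 CPM in LKO. Its LKO pool at 12 h was level with the control pool at 48 h, so the groups overlapped across times, while at each time point LKO was lower (log2 fold change −2.47, SE 0.25, adjusted p = 0.000235, 5.53-fold). *Tiparp*, an ADP-ribosyltransferase induced by the aryl hydrocarbon receptor, had 91.4, 65.1 and 27.7 CPM in controls and 17.3, 14.5 and 7.08 CPM in LKO (log2 fold change −2.17, SE 0.22, adjusted p = 0.000235), with no overlap. *Klf6*, a zinc-finger factor of the immediate-early class (chromosome 13, 5861482 to 5870394, plus strand), had 279.8, 100.5 and 90.1 CPM in controls and 84.9, 28.4 and 22.4 CPM in LKO. Its highest LKO pool lay just under its lowest control pool (log2 fold change −1.84, SE 0.22, adjusted p = 0.00133). These 5 genes were called without each time point in turn.

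**Figure D2:**
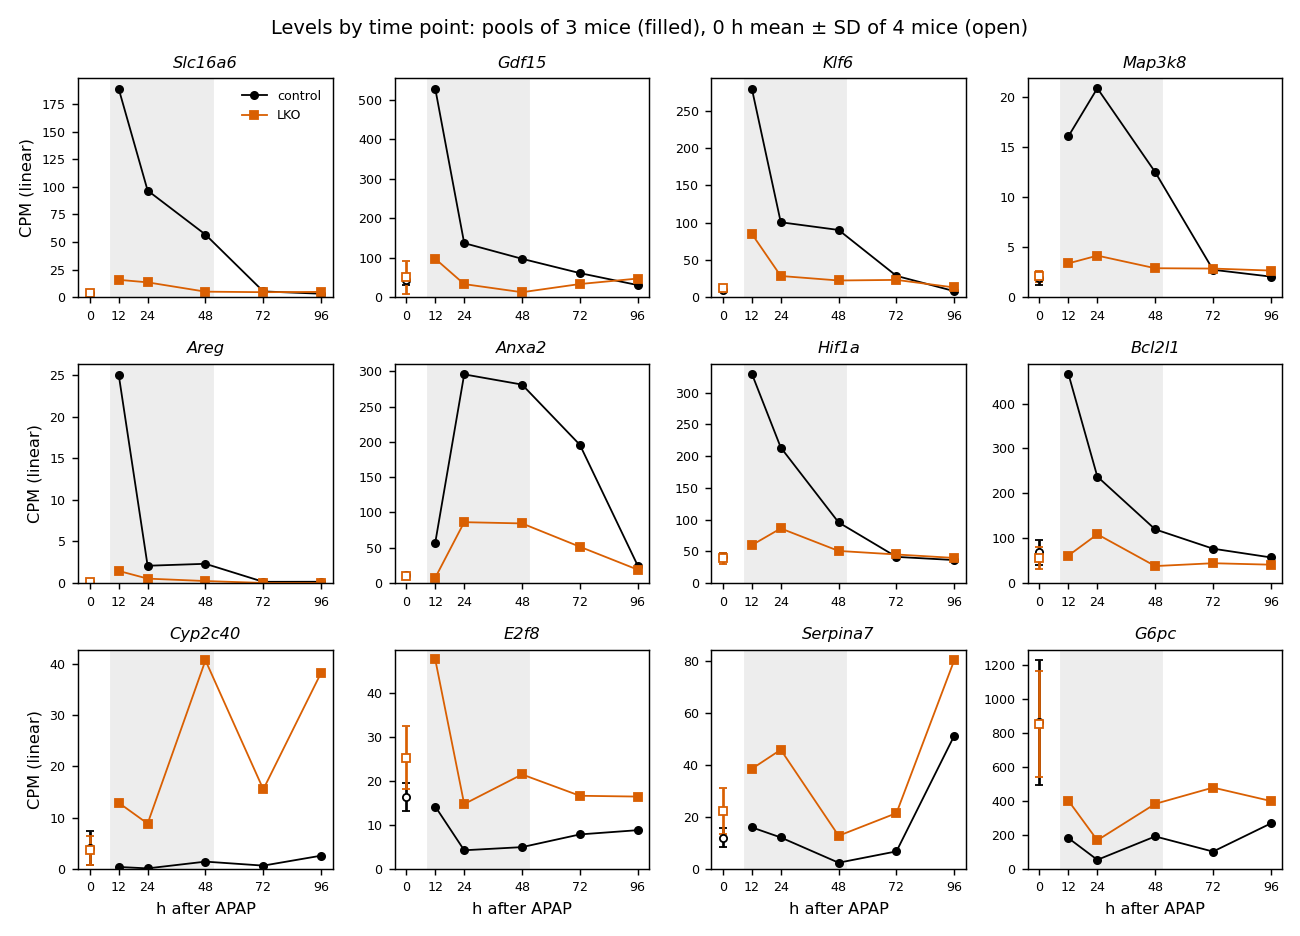
Levels of 12 genes (CPM, linear axis) against hours after APAP in control (black circles) and LKO (orange squares). Filled symbols are single pools of 3 mice, open symbols at 0 h are the mean ± SD of 4 mice, and the grey band marks 12 to 48 h. The upper 8 genes lie lower in LKO within the band and the lower 4 lie higher.

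The largest fitted decreases among called genes follow. *Dusp14*, a dual-specificity phosphatase, had 62.2, 10.6 and 3.84 CPM in controls and 1.57, 0.570 and 0.906 CPM in LKO (log2 fold change −4.00, SE 0.62, adjusted p = 0.0352). *Sphk1*, the kinase that makes sphingosine 1-phosphate, had 29.7, 26.7 and 16.0 CPM in controls and 2.59, 6.12 and 0.963 CPM in LKO (log2 fold change −3.14, SE 0.37, adjusted p = 0.00205). In both genes every LKO pool was under every control pool, and both were called without each time point in turn. *Apol8* (−3.80), *Dok7* (−3.66), *Prr7* (−3.42), *Tnnt2* (−3.35) and *Rasd2* (−3.30) are, with *Dusp14*, *Sphk1*, *Slc16a6*, *Slc34a2* and *Areg*, the 10 largest decreases among called genes with a mean of at least 1 CPM. These 5 had at most 10.0 CPM in any pool, *Apol8* and *Dok7* were at 0 counts in the LKO pool at 48 h, and their fold changes depend on the prior count. *Prr7* lost its call without 12 or 48 h and *Dok7*, *Tnnt2* and *Rasd2* without 24 or 48 h, while *Apol8* was too low to be tested without the 12 h pools.

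The AP-1 and immediate-early genes, many of them for transcription factors, are induced within minutes to hours of stress and had many members lower in LKO. Of 18 tested, 8 were called lower and none higher, and all 18 had a fold change below 0, where 1.33% of all genes were called lower. This list and those below were chosen with earlier results of these data known. Their counts beside the share of all genes are therefore descriptions and support no theme. The median log2 fold change was −1.15, against 0.01 over all genes, and the medians at 12, 24 and 48 h were −1.08, −0.80 and −1.91. *Fosl1* (FRA-1) had 20.0, 6.56 and 2.71 CPM in controls and 1.69, 2.23 and 0.113 CPM in LKO, a log2 fold change of −2.88 (adjusted p = 0.0184, edgeR). *Fosb* had 259, 6.08 and 1.13 CPM in controls and 41.4, 1.56 and 0.623 CPM in LKO (−2.07, adjusted p = 0.00678). No LKO pool of *Fosl1* reached a control pool, while *Fosb* overlapped between groups because it was far lower at 24 and 48 h than at 12 h in both genotypes. *Fos* itself had 165, 25.5 and 22.4 CPM in controls and 75.8, 14.8 and 6.06 CPM in LKO (−1.24, adjusted p = 0.0249). *Btg2*, an antiproliferative gene that p53 also induces, had 263, 63.0 and 99.7 CPM in controls and 93.5, 32.9 and 16.3 CPM in LKO (−1.66, adjusted p = 0.0293). The other called members were *Klf6*, *Jund* (−1.03), *Fosl2* (−1.07) and *Myc* (−1.02).

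Not every member moved with them. *Jun*, the partner of FOS in AP-1, had 439.9, 70.8 and 75.9 CPM in controls and 643, 66.3 and 53.9 CPM in LKO and did not pass the test (log2 fold change −0.00, SE 0.25, adjusted p = 0.997). *Atf3* had 196, 14.5 and 17.6 CPM in controls and 246, 8.09 and 4.19 CPM in LKO (log2 fold change −0.80, SE 0.45, adjusted p = 0.479). For both, the LKO pool was the higher one at 12 h and the lower one at 24 and 48 h. The count of called members was 3 without the 12 h pools, 11 without the 24 h pools, 6 without the 48 h pools and 13 with DESeq2. *Fosb*, *Fosl1*, *Btg2*, *Jund*, *Fosl2* and *Myc* lost their calls without the 12 h pools, *Jund* also without the 24 h pools, and *Fos*, *Fosl2* and *Myc* without the 48 h pools.

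AP-1 proteins bind the letters TGANTCA, and TGACGTCA is the CRE, the site of CREB and ATF proteins. Since AP-1 genes were among those lower in LKO, the 250 bases before the start of transcription are shown for 2 genes that hold each motif, those with the smallest p among the genes called lower that the naming rule picked, which takes at most 5 members of a list (RefSeq, GRCm38.p6, 5′ to 3′ on the strand of the gene, the motif in capitals). *Anxa2* (chr9:69453433-69453682, plus strand, match 89 bases before the start) and *Mt2* (chr8:94172368-94172617, plus strand, match 73 bases before the start) hold TGANTCA. *Areg* (chr5:91139349-91139598, plus strand, match 54 bases before the start) and *Dusp1* (chr17:26508473-26508722, minus strand, match 136 bases before the start) hold the CRE. Of genes called lower outside that choice, *S100a11* and *Zyx* also hold TGANTCA.
Anxa2: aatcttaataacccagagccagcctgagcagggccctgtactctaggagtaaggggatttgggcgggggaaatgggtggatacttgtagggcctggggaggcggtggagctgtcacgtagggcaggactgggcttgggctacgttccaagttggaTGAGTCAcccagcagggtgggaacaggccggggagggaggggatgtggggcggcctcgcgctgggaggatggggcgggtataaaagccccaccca
Mt2: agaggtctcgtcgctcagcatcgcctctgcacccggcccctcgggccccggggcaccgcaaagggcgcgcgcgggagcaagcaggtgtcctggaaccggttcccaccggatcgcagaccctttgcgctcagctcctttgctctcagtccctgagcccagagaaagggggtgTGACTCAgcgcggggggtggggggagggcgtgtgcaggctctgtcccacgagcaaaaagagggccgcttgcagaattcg
Areg: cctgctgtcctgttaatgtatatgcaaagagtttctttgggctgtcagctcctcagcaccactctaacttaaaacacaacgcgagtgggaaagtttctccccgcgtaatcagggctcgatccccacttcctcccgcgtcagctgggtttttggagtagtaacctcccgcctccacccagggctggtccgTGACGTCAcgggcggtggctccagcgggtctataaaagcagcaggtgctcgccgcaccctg
Dusp1: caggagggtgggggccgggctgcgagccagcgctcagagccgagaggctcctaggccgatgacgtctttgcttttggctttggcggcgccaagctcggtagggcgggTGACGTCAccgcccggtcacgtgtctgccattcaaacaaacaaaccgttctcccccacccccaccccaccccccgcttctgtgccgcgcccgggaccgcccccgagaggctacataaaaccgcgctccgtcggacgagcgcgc

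Each of the 4 windows holds its motif once, and neither motif can match the other. Over all 10260 tested genes with such a window, 4.55% held TGANTCA and 2.64% TGACGTCA on either strand. Among the genes called lower, 10 of 132 held the first and 8 of 132 the second. The other motifs searched on both strands were ACGTG (26.5% of windows of genes called lower, 21.7% of all), CACGTG, which contains it (15.9% and 8.45%), GAANNTTC (3.03% and 5.06%), the NF-kB motif (72.0% and 61.3%), TGANNNNGC (45.5% and 36.8%) and TTCNNNGAA (5.30% and 6.13%). Only 77.2% of the 171 genes called lower had a window, less than the 80% set as the minimum, so the comparison of these shares is void, and a match is not evidence of binding.

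Dual-specificity MAPK phosphatases remove the activating phosphates of ERK, p38 and JNK and are themselves induced by these kinases. Of 10 tested, 4 were called lower, beside 1.33% of all genes tested, and none higher (median log2 fold change −1.45, 9 below 0). *Dusp10*, which acts on JNK and p38, had 54.9, 15.2 and 12.1 CPM in controls and 19.0, 4.20 and 4.47 CPM in LKO (log2 fold change −1.59, SE 0.25, adjusted p = 0.00629, edgeR). *Dusp1* had 309, 126 and 147 CPM in controls and 144, 70.0 and 50.6 CPM in LKO (log2 fold change −1.15, SE 0.23, adjusted p = 0.0249). In both, LKO was lower at each time point and the groups overlapped across times. *Dusp8*, with 27.2, 6.56 and 6.14 CPM in controls and 9.88, 3.21 and 0.963 CPM in LKO, and *Dusp14* were the other 2 (log2 fold change of *Dusp8* −1.64, adjusted p = 0.0326). *Dusp1* was not called without the 48 h pools and *Dusp8* without the 12 or the 48 h pools, while 7 members were called by DESeq2 and 8 without the 24 h pools.

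Within the JNK pathway, 2 of 23 genes tested were called lower, beside 1.33% of all genes tested, and none higher (median log2 fold change −0.22, with 13 below 0 and 10 above). *Map3k8* (TPL2), a MAP3 kinase upstream of MEK and ERK that can also feed JNK (chromosome 18, 4331327 to 4353015, minus strand), had 16.1, 20.8 and 12.5 CPM in controls and 3.37, 4.15 and 2.89 CPM in LKO. Every LKO pool lay below every control pool, and the ratio was nearly the same at each time point (−2.21, −2.30 and −2.07 on the log2 scale at 12, 24 and 48 h; fitted log2 fold change −2.22, SE 0.28, adjusted p = 0.00182). *Gadd45a*, a stress sensor that activates the MAP3 kinase MEKK4, had 64.7, 10.6 and 6.50 CPM in controls and 15.1, 4.10 and 1.42 CPM in LKO (log2 fold change −1.87, SE 0.27, adjusted p = 0.00415). Both were called without each time point in turn. The kinases further down did not pass the test. *Map2k4* (MKK4) had 69.4, 40.4 and 39.1 CPM in controls and 58.8, 55.4 and 49.4 CPM in LKO (log2 fold change 0.19, SE 0.22, adjusted p = 0.743). *Mapk8* (JNK1, log2 fold change −0.22, SE 0.22, adjusted p = 0.704) and *Mapk9* (JNK2, 0.17, SE 0.22, adjusted p = 0.775) overlapped between the groups, and the counts say nothing of phosphorylation. *Map3k9* was left out by the filter on low counts.

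Of 17 EGF receptor ligands and growth factors, *Areg* and *Gdf15* were called lower, beside 1.33% of all genes tested, and none higher (median log2 fold change −0.81). The same share applies to the other lists of this paragraph. *Areg* (amphiregulin, chromosome 5, 91139599 to 91148432, plus strand), an EGF receptor ligand that damaged epithelium releases, had 25.1, 2.07 and 2.30 CPM in controls and 1.45, 0.518 and 0.227 CPM in LKO (log2 fold change −3.24, SE 0.47, adjusted p = 0.00437, edgeR). The level was far higher at 12 h than later in both genotypes, and no LKO pool reached a control pool. Without the 12 h pools the gene was not called, and without the 24 h pools 7 of the 17 genes were. *Hbegf*, another ligand of the receptor, had 64.4, 9.54 and 7.37 CPM in controls and 2.89, 3.53 and 1.53 CPM in LKO, with an LKO pool lower at each time point and no call (log2 fold change −2.72, SE 0.62, adjusted p = 0.121). Among 16 chemokines tested only *Cxcl2*, which attracts neutrophils, was called (lower), with 46.3, 21.5 and 9.41 CPM in controls and 8.73, 5.96 and 0.396 CPM in LKO (log2 fold change −2.64, SE 0.43, adjusted p = 0.0213). It lost the call without the 12 h pools, whereas 4 chemokines were called without the 24 h pools and 5 by DESeq2. Among 15 cytokines and receptors only *Il17ra*, the IL-17 receptor chain, was called (lower, −1.29, adjusted p = 0.0164), and it was called without each time point in turn. None of 17 NF-kB and STAT3 feedback genes was called, with 4 lower and none higher at an unadjusted p under 0.05 (median −0.31) and none by DESeq2.

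Of 33 tested genes of the cytoskeleton and its membrane partners, 7 were called lower, beside 1.33% of all genes tested, and none higher. A fold change below 0 was found in 30 of them, beside 49.1% of all genes tested, and the median was −0.84 (log2). *Anxa2*, a calcium-dependent membrane-binding protein (chromosome 9, 69453620 to 69491795, plus strand), had 57.2, 296 and 281 CPM in controls and 7.41, 86.2 and 84.4 CPM in LKO. The control level was higher at 24 and 48 h than at 12 h and LKO was lower at each time point, with an overlap because the control pool at 12 h was low (log2 fold change −2.12, SE 0.27, adjusted p = 0.00203, edgeR). *S100a10*, which forms a complex with annexin A2, had 413, 720.0 and 401 CPM in controls and 124, 346 and 136 CPM in LKO, without overlap (log2 fold change −1.44, SE 0.23, adjusted p = 0.00738). *Anxa5*, which binds phosphatidylserine on dying cells, had 232, 266 and 306 CPM in controls and 98.0, 128 and 139 CPM in LKO (log2 fold change −1.14, SE 0.22, adjusted p = 0.0199). The tubulin *Tubb6* (−1.43), the tropomyosin *Tpm4* (−1.27) and the calcium-binding proteins *S100a11* (−1.12) and *S100a6* (−1.74) were the other called members. *Tubb6*, *Tpm4* and *Anxa5* were not called without the 12 h pools, nor *S100a11* and *S100a6* without the 48 h pools.

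The list of cholangiocyte and fetal liver genes had 2 of 16 tested genes lower, beside 1.33% of all genes tested, and none higher (median −0.97). *Krt18*, a keratin of hepatocytes and bile duct cells alike, had 1894, 1684 and 1123 CPM in controls and 334, 923 and 398 CPM in LKO (log2 fold change −1.61, SE 0.30, adjusted p = 0.0229, edgeR). *Sox9*, a bile duct and progenitor factor, had 127, 29.8 and 21.8 CPM in controls and 20.2, 12.1 and 11.0 CPM in LKO (log2 fold change −1.65, SE 0.31, adjusted p = 0.032). In neither gene did the groups overlap, and the gap was widest at 12 h. *Krt18* was not called without the 12 or the 48 h pools, and 6 members were called without the 24 h pools. The bile duct keratin *Krt19* did not go with them (2.10, 0.790 and 0.818 CPM in controls and 1.93, 0.985 and 0.453 CPM in LKO, log2 fold change −0.18, SE 0.58, adjusted p = 0.918).

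Of 28 hypoxia-responsive and glycolytic genes, 2 were called lower, beside 1.33% of all genes tested, and none higher (median −0.50). A fold change below 0 was found in 23, beside 49.1% of all genes tested. *Hif1a*, the oxygen-regulated subunit of HIF-1, had 329.9, 214 and 95.4 CPM in controls and 59.6, 86.0 and 50.5 CPM in LKO (log2 fold change −1.55, SE 0.29, adjusted p = 0.0235, edgeR). *Slc2a1*, the glucose transporter GLUT1, had 261, 60.2 and 39.6 CPM in controls and 32.3, 26.2 and 14.8 CPM in LKO (log2 fold change −1.86, SE 0.34, adjusted p = 0.036). All LKO pools of both lay below all controls, and *Slc2a1* was not called without the 48 h pools. Of 25 p53 targets, *Btg2* and *Cdkn1a* were called lower, again beside 1.33% of all genes, and none higher (median −0.55, with 21 below 0 beside the same 49.1%). *Cdkn1a* (p21), an inhibitor of cyclin-dependent kinases, had 381, 246 and 206 CPM in controls and 205, 103 and 35.2 CPM in LKO (log2 fold change −1.54, SE 0.32, adjusted p = 0.042). The groups did not overlap, and the ratio went from −0.89 at 12 h to −2.54 at 48 h on the log2 scale. Of 25 cell death regulators only *Bcl2l1* (BCL-XL), which holds back apoptosis, was called (lower), with 466, 237 and 119 CPM in controls and 61.1, 108 and 37.6 CPM in LKO (log2 fold change −1.89, SE 0.33, adjusted p = 0.0218). It lost the call without the 48 h pools.

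The cell cycle lists had few calls (of all genes tested, 1.33% were called lower and 0.171% higher). Of 35 S phase and replication genes 1 was called in each direction (median −0.04). *Cdt1*, which licenses replication origins, was lower (32.9, 15.1 and 18.5 CPM in controls and 7.35, 4.87 and 11.9 CPM in LKO, log2 fold change −1.46, SE 0.31, adjusted p = 0.0334, edgeR). *Mcm10*, which helps to start the fork, was higher (16.8, 18.5 and 22.3 CPM in controls and 32.9, 35.5 and 42.3 CPM in LKO, log2 fold change 0.95, SE 0.21, adjusted p = 0.0409), at nearly the same ratio at each time point. *Cdt1* lost its call without the 12 h pools and *Mcm10* without any 1 time point. Of 17 G1 cyclins and brakes, *Cdkn1a* and *Wee1* (−1.44, adjusted p = 0.0442), the kinase that delays mitosis, were lower, and none of 22 G2/M genes was called (18 below 0, median −0.36, none at an unadjusted p under 0.05 and none by DESeq2). *Ccnd1* (cyclin D1, 19.2, 72.5 and 44.1 CPM in controls and 28.2, 40.4 and 48.9 CPM in LKO) and *Pcna* (40.0, 42.5 and 44.5 CPM in controls and 22.8, 51.5 and 45.0 CPM in LKO) overlapped between the groups and did not pass the test (log2 fold changes −0.04, SE 0.27, and −0.16, SE 0.24). In the E2F family, *E2f8* alone of 10 tested genes was called.

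Genes that make, conjugate and clear APAP metabolites had no called member among 17 tested (16 of 17 fold changes above 0, median 0.44, 2 higher and none lower at an unadjusted p under 0.05, and none called by DESeq2). *Cyp2e1*, the main APAP-activating P450, had 4416, 1208 and 449 CPM in controls and 3473, 2496 and 2211 CPM in LKO (log2 fold change 1.01, SE 0.52, adjusted p = 0.45, edgeR). The LKO pool was the lower one at 12 h and the higher one at 24 and 48 h. *Cyp1a2* had 160.0, 58.0 and 48.8 CPM in controls and 165, 181 and 462 CPM in LKO, nearly equal at 12 h and higher in LKO afterwards (log2 fold change 1.65, SE 0.73, adjusted p = 0.427). Over the list, the median log2 ratio was −0.22, 0.40 and 1.29 at 12, 24 and 48 h, and without the 12 h pools 2 members were called. Of 35 glutathione and NRF2 genes, *Hmox1*, the haem-degrading enzyme, was lower and *Slc7a11*, the cystine importer that feeds glutathione synthesis, higher (median −0.15, which turns to 0.03 in 1 of the fits that leave out a time point or change the scaling). *Hmox1* had 739.8, 69.5 and 90.5 CPM in controls and 214, 45.1 and 23.9 CPM in LKO (log2 fold change −1.44, SE 0.28, adjusted p = 0.0221). *Slc7a11* had 3.25, 6.20 and 4.91 CPM in controls and 8.13, 15.2 and 10.8 CPM in LKO, without overlap (log2 fold change 1.26, SE 0.29, adjusted p = 0.0442). Neither was called in every fit without 1 time point, *Hmox1* only without 24 h and *Slc7a11* in none. *Nqo1*, another NRF2 target, overlapped between the groups (17.3, 16.9 and 4.76 CPM in controls and 10.2, 35.1 and 8.95 CPM in LKO, log2 fold change 0.42, SE 0.35, adjusted p = 0.64).

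The largest fitted increases among called genes were those of 2 P450 genes. Both passed the filter on low counts through the LKO pools, where they are high, so their tests are a description. *Cyp2c40* and *Cyp2c69* are neighbouring P450 genes on chromosome 19 (39767071 to 39812814 and 39842814 to 39886799) that are expressed more in female than in male liver. *Cyp2c40* had 0.339, 0.0608 and 1.38 CPM in the control pools at 12, 24 and 48 h and 12.9, 8.81 and 40.7 CPM in the LKO pools. *Cyp2c69* had 0.339, 0 and 0.614 CPM in the control pools at 12, 24 and 48 h and 11.0, 9.18 and 15.1 CPM in the LKO pools. All LKO pools lay far above all controls (log2 fold changes 5.29, SE 0.40, adjusted p = 1.1e-05, and 5.30, SE 0.55, adjusted p = 0.00133, edgeR). *Cyp2c69* had 5, 0 and 12 counts in the controls at 12, 24 and 48 h, so its fold depends on the prior count, and near-identical members of the *Cyp2c* family can share or lose reads. At 0 h *Cyp2c40* was 2.30 to 8.94 CPM in the 4 control mice and 1.25 to 7.73 CPM in the 4 LKO mice. The ranges at 0 h overlapped, while the control pools lay below all 4 control mice at 0 h and the LKO pools above all 4 LKO mice.

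Of 28 female-biased genes, 19 passed the filter on low counts, and of these 4 were called higher, beside 0.171% of all genes tested, and none lower. Genes low in controls, such as *Cyp2c40* (5, 1 and 27 counts), *Cyp2c69* and *A1bg* (4, 2 and 11 counts), passed through the LKO pools, so the count and the median of 1.89 (log2) describe the 19 and support no direction for the list, and these 3 genes are not tested where 10 counts are required in every library. The summed level of the 19 was 3038, 1746 and 345.5 CPM in controls and 3588, 1451 and 745 CPM in LKO, lower in LKO at 24 h. The 0 h median of the log2 ratios was 0.70, that at 72 h was 1.62 and that at 96 h 1.34. The other 2 called were *A1bg* (0.271, 0.122 and 0.563 CPM in controls and 2.23, 1.61 and 6.29 CPM in LKO, log2 fold change 3.37, SE 0.57, adjusted p = 0.00982) and *Cyp2b9* (6.03, 2.74 and 1.94 CPM in controls and 15.6, 14.7 and 7.87 CPM in LKO, log2 fold change 1.93, SE 0.32, adjusted p = 0.00781). *A1bg* lost its call without the 48 h pools, and 10 of the 19 were called without the 12 h pools, 7 without the 24 h pools and 9 by DESeq2. Of 24 male-biased genes tested, *Mup14*, *Mup7* and *Mup20*, urinary pheromone carriers, were lower and *Nudt7*, a peroxisomal coenzyme A hydrolase, higher (median −0.20). Of all genes tested, 1.33% were called lower and 0.171% higher. For the male-biased list the 0 h median was −0.68, that at 72 h −0.30 and that at 96 h −1.26. *Mup20* was not called without the 12 or the 24 h pools, nor *Nudt7* without the 48 h pools. *Mup7* had 691, 266 and 695 CPM in controls and 235, 28.3 and 161 CPM in LKO (log2 fold change −2.28, SE 0.32, adjusted p = 0.00738). *Mup14* had 25.3, 8.81 and 16.6 CPM in controls and 4.28, 1.04 and 4.02 CPM in LKO (log2 fold change −2.52, SE 0.31, adjusted p = 0.00151). At 0 h the 2 genes had log2 ratios of −0.95 and −1.44 between the means, where no gene was called (smallest adjusted p of any gene = 0.3796, edgeR). They belong to a family of near-identical genes whose reads can be split or lost. All mice were male.

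Other increases were spread over several functions. *Serpina7*, thyroxine-binding globulin, had 15.9, 12.0 and 2.30 CPM in controls and 38.5, 45.8 and 12.7 CPM in LKO (log2 fold change 1.86, SE 0.27, adjusted p = 0.00392, edgeR). *G6pc*, the last enzyme of gluconeogenesis, had 180.1, 52.1 and 190.0 CPM in controls and 400.2, 167 and 382 CPM in LKO (log2 fold change 1.29, SE 0.23, adjusted p = 0.0141). LKO was higher at each time point in both, with overlap across times, and *G6pc* lost its call without the 24 h pools. *Orm2*, an acute-phase glycoprotein, had 29.4, 15.3 and 25.1 CPM in controls and 77.0, 45.2 and 54.4 CPM in LKO (log2 fold change 1.36, SE 0.22, adjusted p = 0.0073), all LKO pools above all controls. *Cyp26a1*, which degrades retinoic acid, had 3.59, 4.25 and 6.50 CPM in controls and 7.29, 12.0 and 26.3 CPM in LKO (log2 fold change 1.53, SE 0.30, adjusted p = 0.0207). *Rcan2*, a regulator of calcineurin (2.29), and *Ctse*, cathepsin E (2.10), were higher as well, and these 2 and *Cyp26a1* were not called without the 48 h pools. The remaining genes called higher were *Keg1*, *Fam214a*, *Tenm3*, *Insig2*, *Kank1*, *Gstt3*, *Plekha6* and *Mcc*, with log2 fold changes of 0.92 to 1.36, and each of them lost its call without at least 1 time point.

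Of 25 acute-phase genes, *Orm2* was higher and *Mt2*, a metallothionein, lower (2743, 2549 and 1713 CPM in controls and 1323, 1471 and 822 CPM in LKO, log2 fold change −0.96, SE 0.22, adjusted p = 0.0411, edgeR), with 21 above 0 and a median of 0.36 (log2). *Mt2* was not called without the 12 or the 24 h pools, and DESeq2 called 8 members. All 18 bile acid genes tested had a fold change above 0 (median 0.77, 9 at an unadjusted p under 0.05), and none was called, nor more than 2 by DESeq2. *Cyp8b1*, which sets the share of cholic acid, had 206, 62.7 and 98.0 CPM in controls and 370.1, 108 and 183 CPM in LKO (log2 fold change 0.85, SE 0.22, adjusted p = 0.0657). Its LKO pool was the higher one at each time point. *Baat*, which conjugates bile acids, had 135, 113 and 136 CPM in controls and 223, 186 and 249 CPM in LKO (log2 fold change 0.78, SE 0.22, adjusted p = 0.0882), without overlap. Of 24 Wnt targets and pericentral genes none was called (17 above 0, median 0.64, 8 higher and 2 lower at an unadjusted p under 0.05, 2 by DESeq2 and 4 without the 12 h pools). Of 21 glucose-responsive and gluconeogenic genes, *G6pc* was higher and *Igfbp1*, which binds IGF-1, lower (1422, 208 and 554 CPM in controls and 405, 123 and 295 CPM in LKO, log2 fold change −1.15, SE 0.25, adjusted p = 0.0397), the latter not without the 12 h pools. The same 2 genes were the only calls among 21 periportal and urea cycle genes (*G6pc*) and 16 genes of the growth hormone and IGF-1 axis (*Igfbp1*). Of 22 liver transcription factors none was called (19 above 0, median 0.31, 8 higher and 1 lower at an unadjusted p under 0.05, 1 by DESeq2).

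None of 40 nuclear-encoded OXPHOS subunits was called, 1 was higher and none lower at an unadjusted p under 0.05, the fold changes ran from −0.43 to 0.51, and DESeq2 called none. None of 32 mitochondrial antioxidant and quality control genes was called either (range −0.56 to 0.58, 3 higher and 1 lower at an unadjusted p under 0.05, none by DESeq2). The medians of both lists, 0.04 and 0.06, turned below 0 in 1 of the fits that leave out a time point or change the scaling. *Sirt3*, the mitochondrial deacetylase, had 34.5, 33.8 and 34.9 CPM in controls and 64.8, 37.4 and 48.1 CPM in LKO (log2 fold change 0.51, SE 0.23, adjusted p = 0.298, edgeR), and *Aifm1*, the flavoprotein that leaves dying mitochondria, 77.7, 101 and 83.7 CPM in controls and 91.0, 93.6 and 125 CPM in LKO (log2 fold change 0.24, SE 0.22, adjusted p = 0.671). Nor was any member called among 23 heat shock, 31 ER stress, 30 interferon-stimulated, 34 PPAR-alpha, 32 lipogenic and 29 secretory protein genes. At an unadjusted p under 0.05 these 6 lists had 2, 6, 2, 3, 5 and 4 genes, and DESeq2 called 0, 1, 0, 1, 2 and 0. In the clock list, *Bhlhe41* (DEC2), a repressor of clock genes, was lower (19.5, 8.27 and 6.55 CPM in controls and 1.87, 2.33 and 1.76 CPM in LKO, log2 fold change −2.35, SE 0.38, adjusted p = 0.00738), as was *Wee1*. These are 2 of 20 tested, where 1.33% of all genes tested were called lower, and *Wee1* was not called without the 12 h pools.

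**Figure D3:**
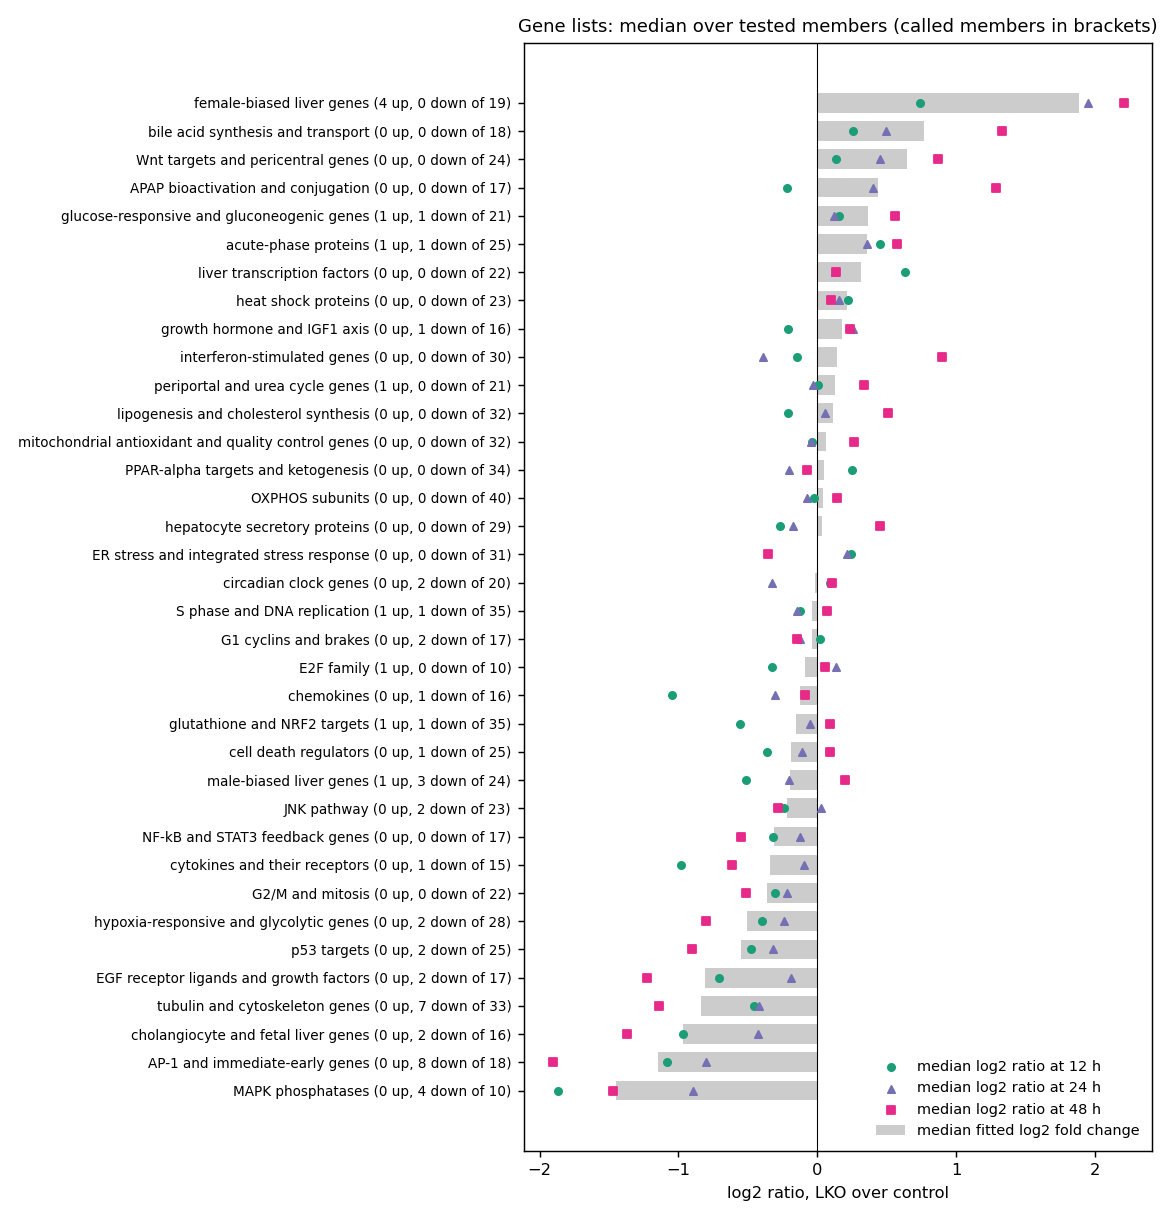
For each of 36 gene lists, the grey bar is the median fitted log2 fold change of LKO over control over the tested members, and symbols are the median log2 ratios at 12, 24 and 48 h. The number of members called up and down is given beside each name, from MAPK phosphatases at −1.45 to female-biased genes at 1.89. The latter median supports no direction for its list, because genes low in controls passed the filter through the LKO pools.

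Whole liver also holds blood-derived and structural cells, so markers of each were summed. Neutrophil markers (10 of 15 tested) added to 385, 508 and 681 CPM in control pools and 393, 818 and 278 CPM in LKO pools at 12, 24 and 48 h, near equal at 12 h, higher in LKO at 24 h and higher in controls at 48 h. The median log2 ratio of these markers was 0.09, 1.07 and −2.07. The sums include *G0s2*, which also restrains lipolysis, with 1853, 3963 and 2945 counts in controls and 801, 3855 and 187 in LKO. Kupffer cell markers (12 tested) added to 309.9, 259 and 419 CPM and 339, 339 and 607 CPM. These sums were higher in LKO at each time point and at 0 h (449.8 and 531 CPM), while the median log2 ratio of the members was −0.17, 0.42 and 0.46 at 12, 24 and 48 h. The member *Slc40a1*, whose gap at 12 h was at least as large as that of the sum, had 1204, 1506 and 2152 counts in controls and 1941, 2031 and 3562 in LKO. Those of recruited monocytes and macrophages (17 tested) added to 313, 257 and 486 CPM in controls and 119, 234 and 298 CPM in LKO. The sums were lower in LKO at each time point, while the median log2 ratio of the members was −0.53, 0.07 and 0.21 and 7 of 17 had a fold change above 0. Within this list *Cd14*, whose gap at 24 h was as large as that of the sum, had 152, 60.3 and 49.9 CPM in controls and 21.4, 36.1 and 3.96 CPM in LKO (log2 fold change −2.38, SE 0.68, adjusted p = 0.257, edgeR). Stellate cell and matrix markers (19 tested) added to 669.6, 545 and 856 CPM and 457, 506 and 592 CPM, again lower in LKO each time, and 7 of them were lower and 1 higher at an unadjusted p under 0.05. Endothelial sums (19 tested) were 718, 459 and 563 CPM in controls and 676, 435 and 608 CPM in LKO. No marker of these 4 lists or of the endothelial list was called by edgeR with all time points kept. DESeq2 called 1 monocyte and macrophage marker and 1 stellate cell and matrix marker. Without the 24 h pools 2 monocyte and macrophage markers, with *Cd14* among them, were called. That fit also called 1 neutrophil, 1 stellate cell and matrix and 1 endothelial marker. Without the 12 h pools 1 stellate cell and matrix marker was called, and no Kupffer cell marker was called in any of these fits. Of 5 cholangiocyte markers *Sox9* was called. Of 4 lymphocyte markers, 2 erythroid and 4 mast cell or mesothelial markers none was, and *Mcpt4* was at 0 in all pools.

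The sums of hepatocyte markers, rounded to 4 digits, were 111400.0, 110700.0 and 92670.0 CPM in controls and 65500.0, 85040.0 and 99980.0 CPM in LKO, lower in LKO at 12 and 24 h and higher at 48 h. The part that these marker levels, and the larger share of reads off genes in the control pool at 12 h, have in the genotype differences was not tested. Without the 12 h pools, and thus without that library, 99 of the 193 genes were called and 1 could not be tested.

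**Figure D4:**
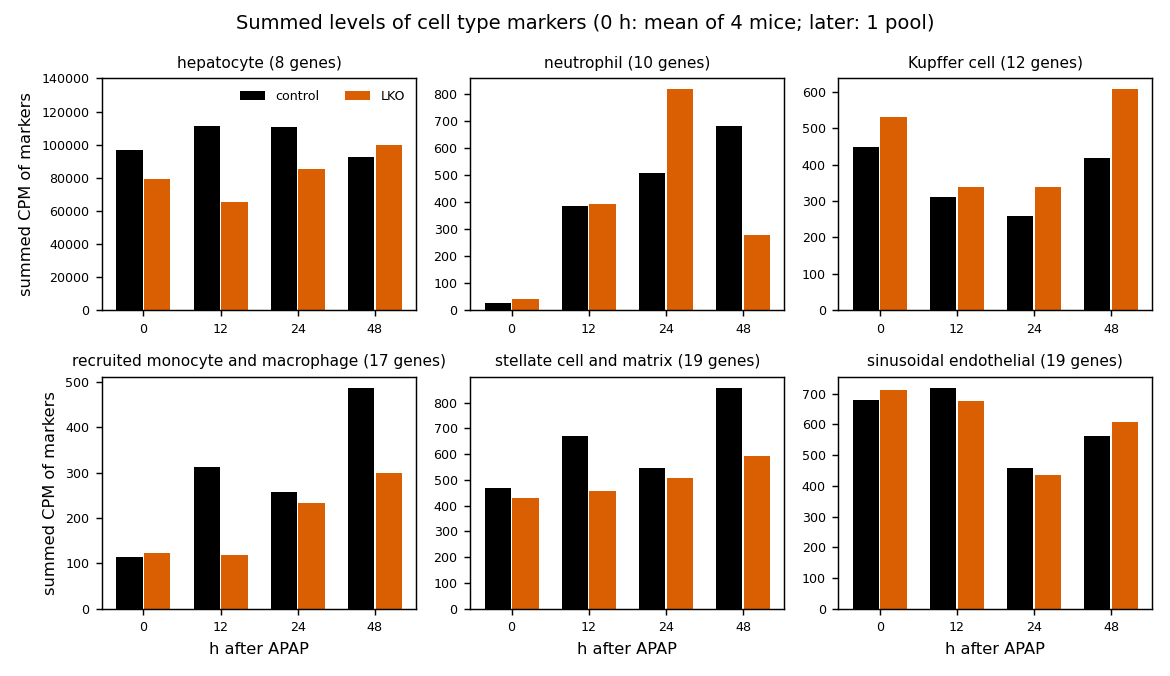
Summed levels (CPM, bars from 0) of the tested markers of 6 cell types in control (black) and LKO (orange) livers at 0 h (mean of 4 mice) and in single pools at 12, 24 and 48 h. Monocyte and macrophage sums in LKO are 119, 234 and 298 CPM against 313, 257 and 486 CPM in controls, although the median member has a log2 ratio of 0.07 at 24 h and 0.21 at 48 h.

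Whether these differences went beyond those of uninjured livers was asked in 1 fit over the 18 libraries of the cohort. Single mice at 0 h and pools of 3 mice share 1 estimate of the spread in it, so its p-values do not measure variation between mice alone. Over the 168 of the 171 genes called lower that this fit tested, its median log2 fold change was −1.45 at 12 to 48 h, −0.05 at 0 h and −0.31 at 72 to 96 h, and over the 22 called higher 1.32, 0.04 and 1.07. Since the genes were chosen on the first of the 3 values, the fall to the others is a description. The difference between the effect at 12 to 48 h and that at 0 h was called in 26 of 13328 genes (0.195%), all of them more negative after APAP, 24 of them among the 193, and 1632 genes had an unadjusted p under 0.05. The largest differences were in *Slc16a6* (−3.28, SE 0.55, adjusted p = 0.0476, edgeR), the tyrosine kinase *Src* (−2.65), *Map3k8* (−2.40), the kinase *Dyrk2* (−2.16) and *Klf6* (−2.06, SE 0.25, adjusted p = 0.00316). *Map3k8* was 1.04 to 2.58 CPM in the 4 control mice at 0 h and 1.52 to 2.82 CPM in the 4 LKO mice, and *Slc16a6* 2.01 to 7.08 and 2.71 to 6.75 CPM. The ranges at 0 h thus overlapped in both genes. The others include the ETS factor *Ets2*, the TGF-beta receptor *Tgfbr2*, the MAP2 kinase *Map2k3*, *Anxa2*, *Anxa5*, *Dusp10*, *Tiparp* and the adhesion proteins *Zyx* and *Pxn*.

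This count moved with single libraries. It was 9 without the 12 h pools, 91 without the 24 h pools, 4 without the 48 h pools, 9 without the 72 h pools and 13 without the 96 h pools. Without 1 control mouse at 0 h it was 7 (each of mice 1 to 3) or 19 (mouse 4), and without 1 LKO mouse 13, 10, 4 and 11 (mice 1 to 4). Of the 26 genes, 3 stayed called without the 12 h pools, 22 without the 24 h pools, 2 without the 48 h pools, 8 without the 72 h pools and 12 without the 96 h pools, and 10 with the replicate number as a block at 0 h. *Klf6* and *Ets2* were called in all 13 of the fits that leave out a time point or a mouse, whereas *Slc16a6* was called in 3, *Map3k8* in 6 and *Src* and *Dyrk2* in 1 each.

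**Figure D5:**
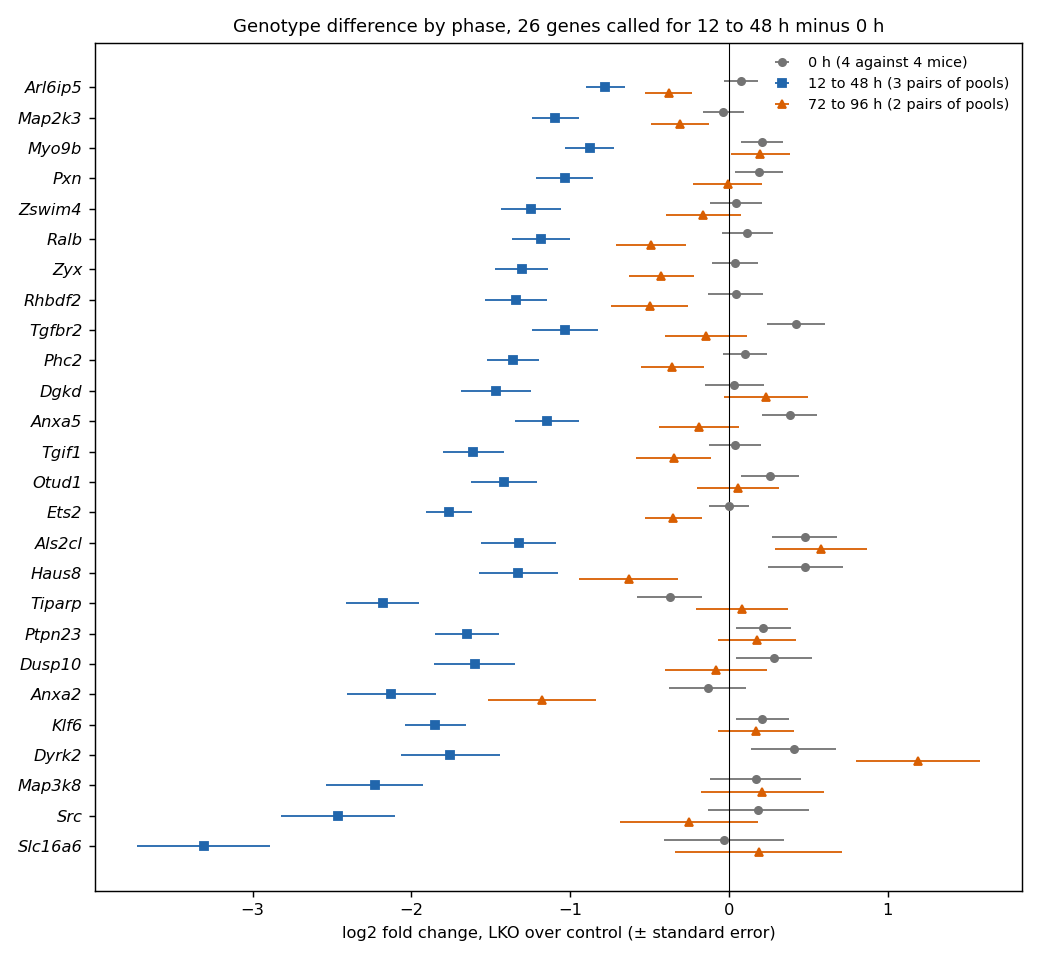
Fitted log2 fold changes of LKO over control with their standard errors at 0 h (grey circles), 12 to 48 h (blue squares) and 72 to 96 h (orange triangles) for the 26 genes called for the difference between 12 to 48 h and 0 h, the genes in order of that difference. All 26 lie below 0 at 12 to 48 h, from −0.78 for *Arl6ip5* to −3.31 for *Slc16a6*.

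Against the effect at 72 to 96 h, 20 genes (0.15%) were called, 18 more negative at 12 to 48 h and 2 more positive, 8 of them among the 193, with 1556 at an unadjusted p under 0.05. *Dyrk2* (−2.95), *Rassf8* (−2.94), *Arl5b* (−2.81), the ETS factor *Elk4* (−2.73) and the ubiquitin ligase *Rnf125* (−2.70) had the largest negative values. Across the alternatives the log2 fold change at 12 to 48 h was −1.42 to −1.17 for *Rassf8*, −1.22 to −0.65 for *Arl5b* and −1.11 to −0.63 for *Elk4*. The last 2 were not called there, so these values also hold the effect at 72 to 96 h. *Rnf125* had 48.1, 17.0 and 25.2 CPM in controls and 38.0, 14.5 and 24.5 CPM in LKO, little apart, while at 72 and 96 h it had 4.94 and 6.15 CPM in controls and 27.1 and 35.7 CPM in LKO. The gap lay at 72 and 96 h, where LKO was the higher one. *Klf6* (−2.02) and *Tiparp* (−2.26) were lower in LKO at 12 to 48 h, and at 72 and 96 h their log2 ratios were −0.30 and 0.68, and 0.13 and 0.03. The 2 positive values were those of *Hp* (haptoglobin, 1.82, SE 0.31, adjusted p = 0.0229, edgeR) and *Ang* (angiogenin, 2.41). *Hp* had 2764, 4182 and 6019 CPM in controls and 4022, 5194 and 6917 CPM in LKO, and 8308 and 6734 CPM in controls against 2960.1 and 2455 CPM in LKO at 72 and 96 h, so that LKO was the higher one early and the lower one late. The count was 8 without the 12 h pools and 1 without the 72 h or the 96 h pools. *Klf6* alone of the 20 genes stayed called without the 72 h pools, and none did without the 96 h pools.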

How the data were processed

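Whole-liver RNA of 6 pools, each of 3 mice, was compared (3 LKO, 3 control), with 12 further libraries of the same cohort for the differences between phases. The authors used Trimmomatic for trimming and STAR for alignment to mm10, and deposited the raw gene counts that STAR wrote, without normalization, of which the column that disregards strand was used. Uniquely mapped reads alone are counted, so paralogs can lose reads. Entries for unmapped, multimapping, off-gene and ambiguous reads were removed. Depth was 15742169 to 17629793 counts per pool. The deposited counts were analysed in R 4.3.3 with edgeR 4.0.16: filterByExpr, TMM, quasi-likelihood F-test with robust dispersion, design of time point plus genotype, Benjamini-Hochberg adjustment over all genes, calls at an adjusted p under 0.05 and 1.5-fold. The study names DESeq2 (here 1.42.0, an alternative). Standard errors are the fold change over the square root of F. Levels are CPM scaled by TMM over 18 libraries, and ratios per time point use log2 CPM with a prior count of 2. Scripts were tested on simulated counts.

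Named genes are the called genes with the 10 largest changes and the 5 smallest p-values in each direction (mean of at least 1 CPM), up to 5 called members of each list (with none called, up to 2), genes the study names and the 5 largest differences between phases; further ones, such as *Jun*, *Atf3*, *Hbegf*, *Egr1* and *Krt19*, were added after their values were seen. The members and the 46 lists were chosen with earlier results of these data known. Coordinates are from GENCODE vM21 (96.6% of tested symbols matched), promoters from RefSeq (10260 of 12859 genes, 427 by an older symbol). Same-numbered mice at 0 h were not paired (correlations of their deviations −0.35, −0.16, 0.08 and 0.20). Alternatives were other tools, scalings, filters, count columns and blocks, and leaving out each time point or mouse.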

Additional observations from a re-analysis of the deposited data

Results flagged for a closer look

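Only genes that the naming rule picked are listed here, which leaves out others called, such as *Ets2*. The genotype difference at 12 to 48 h differed from that at 0 h, by a test of the difference itself (edgeR, adjusted p under 0.05), in *Slc16a6* (−3.28 log2), *Src* (−2.65), *Map3k8* (−2.40), *Dyrk2* (−2.16), *Klf6* (−2.06), *Anxa2* (−1.99), *Dusp10* (−1.89), *Tiparp* (−1.81) and *Anxa5* (−1.53). It differed from that at 72 to 96 h in *Dyrk2* (−2.95), *Rassf8* (−2.94), *Arl5b* (−2.81), *Elk4* (−2.73), *Rnf125* (−2.70), *Tiparp* (−2.26), *Klf6* (−2.02), *Hp* (1.82) and *Ang* (2.41). At 12 to 48 h itself *Arl5b*, *Elk4*, *Rnf125*, *Hp* and *Ang* were not called. Each call for a difference listed here, except that of *Klf6* against 0 h, was lost in at least 1 of the 13 fits that leave out a time point or a mouse, and all those against 72 to 96 h were lost without the 96 h pools.

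Among the 6 genes whose levels at 0 h were examined mouse by mouse, 1 mouse stood far from the other 3 of its group in 2 cases. The highest LKO mouse had 112.3 CPM of *Gdf15*, with the others at 25.1 to 32.2 CPM (gap 0.918 of the range), and the highest control mouse had 8.94 CPM of *Cyp2c40*, with the others at 2.30 to 2.50 CPM (gap 0.97 of the range). The cut-off that flags a gap is passed by chance in about 1 of 20 groups, and 12 groups were examined.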

How the results depend on the processing

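Of the 61 named genes that were called, 48 were tested in all 11 alternatives that fit these pools with the time block, and 23 of these were called in all 11, of which 18 were also called with 18 libraries in 1 fit. None of the 61 changed sign in an alternative that tested it. The 193 calls at 12 to 48 h became 516 with DESeq2, 774 with no filter beyond 1 count, 327 with at least 10 counts in every library, 440 with 18 libraries in 1 fit and 0 without the time block. They were 148 to 438 when the pools of 1 time point were left out. Under RLE scaling, library sizes alone, either stranded column, a fit without robust dispersion and no limit on the fold change the count was within 1.5 times of 193. The 26 genes whose difference at 12 to 48 h departed from that at 0 h became 239 with DESeq2, 44 with library sizes alone, 43 with at least 10 counts, 12 without the 72 and 96 h pools and 4 to 91 when 1 time point or mouse was left out. The 20 that departed from 72 to 96 h became 187 with DESeq2, 47 with library sizes alone, 44 with no filter beyond 1 count, 32 with at least 10 counts, and 1 to 26 when 1 time point or mouse was left out. Scaling by library sizes alone shifted the median of all genes in these 2 contrasts to −0.11 and −0.12 (log2). The cause of these moves was not tested.

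With the replicate number as a block among the 8 mice at 0 h, 12 and 7 genes were called for the 2 differences. The mice share only a number, since the deviations of same-numbered mice correlated above 0 in 2 of 4 pairs and below 0 in 2, and none correlated best with its own number. No paired analysis was possible for the 12 to 48 h comparison beyond its time block, because each genotype and time point is 1 library. The median of 17 of 46 lists changed sign under at least 1 scaling or left-out time point, among them S phase, G1, E2F family, cell death, clock, ER stress and secretory protein genes. At 15742169 to 17629793 reads, the fold change of *E2f7*, at 5 to 26 counts a pool, had an SE of 0.64 (log2).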

Other observations

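Several genes differed widely at some time points and did not pass the test of the 3 together. *Txnip*, a thioredoxin inhibitor induced by glucose, had 144, 326 and 263 CPM in controls and 123, 67.7 and 54.5 CPM in LKO, so that it was similar at 12 h and lower in LKO at 24 and 48 h (log2 fold change −1.61, SE 0.45, adjusted p = 0.17, edgeR). *G0s2*, which restrains lipolysis and is also found in neutrophils, had 126, 241 and 151 CPM in controls and 48.2, 199.8 and 10.6 CPM in LKO (log2 fold change −1.74, SE 0.92, adjusted p = 0.514). *Egr1*, an immediate-early factor, had 581, 97.6 and 110.1 CPM in controls and 395, 46.8 and 25.8 CPM in LKO (log2 fold change −1.22, SE 0.29, adjusted p = 0.0621). *Acacb*, the mitochondrial acetyl-CoA carboxylase, had 46.7, 20.4 and 17.1 CPM in controls and 171, 21.8 and 48.4 CPM in LKO, with the gap at 12 and 48 h and not at 24 h (log2 fold change 1.18, SE 0.33, adjusted p = 0.127). *Hsph1*, a heat shock protein, had 93.4, 79.1 and 46.3 CPM in controls and 343, 109 and 57.4 CPM in LKO, with most of the gap at 12 h (log2 fold change 0.88, SE 0.31, adjusted p = 0.213). Single time points have no replicate, and these genes were chosen after their values were seen.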
